A study of Mus musculus with 31 samples.

Results

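Scavenger receptors are surface proteins with which phagocytes bind and take up modified lipoproteins, dying cells, microbes and matrix debris. The genes described here are Msr1, Marco, Cd36, Scarb1, Olr1, Stab1 and Lrp1, each a receptor, together with Cxcl17. They were chosen by symbol, and all 8 have a single row among the 24411 entries of the deposited count table. Of these, 7 encode receptors and 1 does not: Cxcl17 is a secreted chemokine of mucosal surfaces, and its levels are given here only because it belongs to the list. The chemokine with an established scavenger receptor function is Cxcl16, which was among the related genes.

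The receptors fall into structural classes that differ in ligand and in what follows uptake. Class A receptors (Msr1 and Marco) carry a collagen-like stalk and bind acetylated and oxidised low-density lipoprotein and bacterial surfaces. Class B receptors (Cd36 and Scarb1) span the membrane at both ends and move lipid: Cd36 takes up oxidised lipoprotein and long-chain fatty acids, and Scarb1 exchanges cholesterol ester with high-density lipoprotein. Olr1 is a lectin-like receptor for oxidised lipoprotein, Stab1 clears acetylated lipoprotein, the matrix protein SPARC and dying cells, and Lrp1 is a very large endocytic receptor for protease-inhibitor complexes, apolipoprotein E and thrombospondin. In monocytes and macrophages these genes are known to be regulated with differentiation and lipid load.

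RNA-seq was measured in Ly6C-high monocytes of C57BL/6J mice, sorted as CD11b-positive, Ly6G-negative and MHC-II-negative cells. Blood of healthy animals gave 3 libraries (healthy blood), blood of animals carrying subcutaneous LLC tumors gave 3 (LLC blood), and the tumors themselves gave 3 (LLC tumor). LLC, Lewis lung carcinoma, is a lung tumor line grown by transfer into mice of this strain. No other genotype, agent or time, and no age, is given in the labels used here, and they do not say whether blood and tumor came from the same mice or whether libraries of a group came from separate mice. P-values therefore measure the spread between these libraries, which may be technical. The comparison of the blood groups asks what carrying a tumor does to circulating monocytes, and the comparisons with tumor ask how monocytes inside it differ.

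Total counts per library ranged from 10457492 to 20706412. Levels are CPM, counts scaled to a common library total, and 3 counts, used as the detection floor, lay between 0.145 and 0.287 CPM. Fold changes are those of edgeR's quasi-likelihood fit over 12337 genes, adjusted by Benjamini-Hochberg over all of them; called means that this adjusted p was below 0.05. The 10 monocyte markers summed to 13215 to 20233 CPM in the 9 libraries, and none was at 0. Within that sum members went both ways: 4 were called higher and 5 lower in LLC tumor against LLC blood. Ly6c2, which encodes the sorted Ly6C antigen, was at 1571 to 1728 CPM in healthy blood, 1099 to 1237 CPM in LLC blood and 272.4 to 472.5 CPM in LLC tumor, and Fn1, fibronectin, alone made up 7584 to 11388 CPM in tumor. The sort was for MHC-II-negative cells, yet H2-Aa, an MHC-II gene, was at 115.7 to 255.4 CPM in healthy blood. It was at 33.8 to 73.7 CPM in LLC blood and 18.7 to 59.5 CPM in tumor. Of the 6 sorting marker genes tested, 1 was called higher and 3 lower in LLC blood against healthy blood (14% and 9.61% of all genes). Markers of other cells moved with the groups as well. NK cell markers summed to 221.5 to 512.8 CPM in healthy blood, against 38.5 to 58.8 CPM in LLC blood and 6.83 to 16.3 CPM in tumor. T cell markers summed to 37.4 to 140.7, 5.003 to 10.46 and 106.1 to 134.7 CPM. In tumor the T cell sum was mainly Il7r (121.4, 103.5 and 99.5 CPM), with Cd3d, Cd3e and Cd3g at most at 0.71 CPM. Of the 8 T cell markers, 1 was called higher and 6 lower in tumor than in healthy blood (33.5% and 33% of all genes). All 8 genes of the NK cell list and of the T cell list were called lower in the blood comparison, as were 9.61% of all genes. The part of these cells in the blood results was not tested. Fibroblast markers, 10 in number, summed to 6.88 to 18.4 CPM in the healthy libraries but 966.7 to 4039 CPM in those of tumor, and LLC blood 1 stood apart from the other LLC blood libraries with 436.8 CPM against 4.57 and 5.84. The 8 B cell markers summed to 220.1 CPM in healthy blood 2 and to 23.6 and 32.2 CPM in the other healthy blood libraries. LLC tumor 1 had the lowest TMM scaling factor, 0.798 against 0.968 to 1.07 in the other libraries. The fold changes use these factors and the CPM levels do not. The order and overlap of libraries in CPM may therefore differ from those with the factors. In these bulk samples, fewer cells of a type and less RNA per cell cannot be told apart.

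Of the 8 genes, 6 passed the filter on low counts and were tested (Msr1, Cd36, Olr1, Scarb1, Stab1 and Lrp1). Marco did not pass, and Cxcl17 had no count. In LLC blood against healthy blood 3 genes were called, Lrp1 and Scarb1 higher and Cd36 lower, against a background of 23.6% of all tested genes called. In LLC tumor against LLC blood 5 were called, Stab1, Msr1, Cd36 and Olr1 higher and Scarb1 lower, against a background of 61.3%. In LLC tumor against healthy blood 5 were called, Stab1, Msr1, Lrp1 and Olr1 higher and Scarb1 lower, against a background of 66.5%. The comparisons share libraries, so their values are given side by side and not set against each other.

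**Figure D1:**
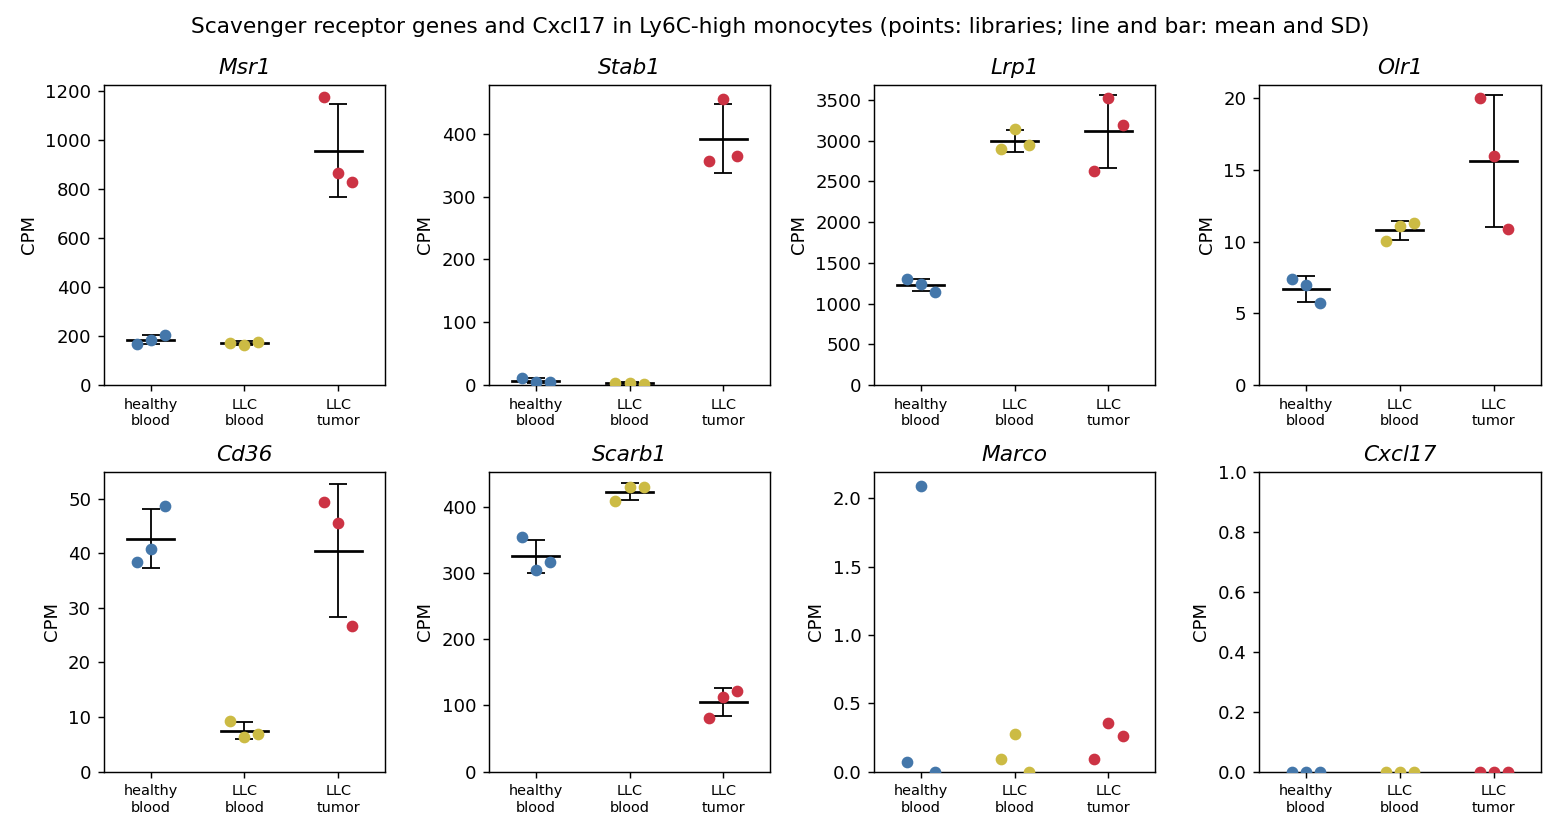
Level of each of the 8 genes in CPM (vertical axes, each from 0) in the 3 libraries of healthy blood, LLC blood and LLC tumor; points are libraries, and the line and bar give the mean and SD (not drawn for Marco and Cxcl17). Msr1 and Stab1 are high in the 3 tumor libraries, Lrp1 is high in both groups from tumor-bearing mice, Cd36 is low in LLC blood, and Scarb1 is low in tumor.

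The RefSeq table of promoters (GRCm38.p6, the patch release of the mm10 build named in the submitters' processing notes) held a window for 5 of the 8 genes. The 250 bases before the annotated start are printed for the 4 of them that were tested, because their transcripts follow different patterns over the groups. All lie on the minus strand and are written 5′ to 3′ along the gene, with capitals marking matches to the motifs searched.
Stab1, chr14:31168642-31168891: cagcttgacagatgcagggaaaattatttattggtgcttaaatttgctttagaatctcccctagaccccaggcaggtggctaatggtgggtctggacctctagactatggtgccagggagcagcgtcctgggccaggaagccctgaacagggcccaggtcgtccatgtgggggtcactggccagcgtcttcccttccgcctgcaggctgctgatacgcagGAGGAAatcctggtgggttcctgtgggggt
Lrp1, chr10:127621149-127621398: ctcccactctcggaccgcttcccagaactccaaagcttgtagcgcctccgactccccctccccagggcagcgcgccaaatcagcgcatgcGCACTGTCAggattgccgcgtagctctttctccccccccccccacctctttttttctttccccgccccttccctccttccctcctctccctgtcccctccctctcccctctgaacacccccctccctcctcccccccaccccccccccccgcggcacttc
Olr1, chr6:129507166-129507415: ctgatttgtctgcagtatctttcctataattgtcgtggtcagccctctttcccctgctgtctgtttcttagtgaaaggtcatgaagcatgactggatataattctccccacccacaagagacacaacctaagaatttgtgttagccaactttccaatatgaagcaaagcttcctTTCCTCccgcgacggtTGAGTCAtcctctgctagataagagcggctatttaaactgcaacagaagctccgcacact
Cd36, chr5:17835897-17836146: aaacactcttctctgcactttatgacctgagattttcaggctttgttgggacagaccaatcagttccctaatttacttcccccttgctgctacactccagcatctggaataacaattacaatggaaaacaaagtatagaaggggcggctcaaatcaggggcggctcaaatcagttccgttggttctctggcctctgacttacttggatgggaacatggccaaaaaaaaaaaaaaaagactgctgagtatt

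The motifs were searched on both strands: TGANTCA (AP-1, bound by Fos and Jun), GAGGAA (the core of PU.1, the myeloid factor encoded by Spi1), ACGTG (the hypoxia response core), TTGCNNAA (C/EBP) and TGACNNNGC (the antioxidant response core, whose first 3 letters it shares with AP-1). The Olr1 window held an AP-1 match from 60 to 54 bases before the start and a PU.1 core match on the opposite strand from 76 to 71 bases before it. The Stab1 window held a PU.1 core match from 30 to 25 bases before the start, and the Lrp1 window an antioxidant response core match on the opposite strand from 160 to 152 bases before it. The Cd36 window held none of the 5. That window, and most of the Olr1 window with both its matches, lie inside the annotated span of the gene, which reaches further upstream than the start used here, and the Stab1 window overlaps its gene's span by a few bases without its match. Of 32851 RefSeq windows of this length, 6.75% held the AP-1 letters, 23.3% the PU.1 core, 16.6% the hypoxia core, 9.56% the C/EBP letters and 10.2% the antioxidant core. The windows also differed in base composition: G and C made up 67.2% of the Lrp1 window, 57.2% of that of Stab1, 45.2% of that of Olr1 and 43.2% of that of Cd36, against a median of 52.4% over all windows. A match describes the letters only, and no binding was measured in the data used here.

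Stab1 had the largest fold change of the 6 tested genes. Stab1 (ENSMUSG00000042286, chr14:31139017-31168651) was at 11.6, 4.67 and 4.84 CPM in healthy blood 1 to 3, at 3.73, 4.01 and 2.32 CPM in LLC blood and at 356.7, 455.4 and 365.2 CPM in LLC tumor. The tumor libraries lay far above every blood library, and each LLC blood library lay below each healthy one, with healthy blood 1 the highest of the blood libraries. Against LLC blood the tumor level was 137.8-fold higher (log2 fold change 7.11 ± 0.37 SE, 95% interval 6.27 to 7.94, adjusted p 5.64e-07 by edgeR), the 236th largest rise among the 12337 genes. Against healthy blood it was 63.3-fold higher (log2 fold change 5.98 ± 0.34 SE, adjusted p 7.65e-07). The log2 difference between the blood groups was -1.12 ± 0.37 SE and did not pass the threshold (adjusted p 0.0568 by edgeR). It passed in 8 of 21 alternatives, among them the fits without healthy blood 2 (-1.41) and without LLC tumor 1 (-1.18), and without healthy blood 1 it was -0.57. Stab1 is also known from sinusoidal endothelium, so the 10 endothelial markers are given: their sums were 16.9 to 24.1 CPM (healthy), 18.2 to 20.7 CPM (LLC blood) and 58.8 to 73.0 CPM (tumor). In the tumor libraries most of that sum was Pecam1, which leukocytes also express (56.1, 41.0 and 43.3 CPM), while Emcn and Cldn5 were at most 0.44 CPM. Cdh5, which defines endothelium, was at 0.37 to 1.0 CPM in the blood libraries and at 2.53, 3.28 and 4.41 CPM in tumor, and Kdr, a receptor for vascular endothelial growth factor, at 0.29 to 1.21 CPM in blood and 10.7, 5.94 and 8.47 CPM in tumor. Of the 4 endothelial markers tested, 3 were called higher in tumor than in LLC blood and 3 higher than in healthy blood (29.6% and 33.5% of all genes). Sums of the 12 mature macrophage markers were 560.9 to 578.8 CPM (healthy), 536.0 to 584.0 CPM (LLC blood) and 2026 to 2564 CPM (tumor). Of the 10 tested, 8 were called higher and 1, Adgre1, lower in tumor against LLC blood (29.6% and 31.7% of all genes). The blood sums hide members that fell. In the blood comparison 0 were called higher and 5 lower (14% and 9.61% of all genes): C1qa, C1qb, C1qc, Maf and Siglec1. Adgre1, not called there, averaged 293.8 CPM in healthy blood and 328.8 CPM in LLC blood. The part of either cell type in the Stab1 level was not tested.

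Msr1, the class A receptor that gives foam cells much of their modified lipoprotein, was high in the tumor libraries. Msr1 (ENSMUSG00000025044, chr8:39543232-39642750) was at 166.7, 184.7 and 202.3 CPM in healthy blood, at 172.7, 161.5 and 177.2 CPM in LLC blood and at 1174, 867.0 and 826.4 CPM in LLC tumor. The blood groups overlapped, and every tumor library lay above them, LLC tumor 1 highest. The level in tumor was 6.57-fold that in LLC blood (log2 fold change 2.72 ± 0.21 SE, adjusted p 5.04e-06 by edgeR) and 5.96-fold that in healthy blood (2.58 ± 0.21 SE, adjusted p 5.79e-06). Between the blood groups the log2 difference was -0.14 ± 0.20 SE, with a 95% interval from -0.59 to 0.30 (adjusted p 0.650).

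Marco, the other class A receptor, known from marginal zone and alveolar macrophages, was close to the floor. Marco (ENSMUSG00000026390, chr1:120474538-120505024) had 1, 34 and 0 counts in healthy blood 1 to 3, followed by 1, 4 and 0 for LLC blood, then 1, 4 and 3 for tumor. Only healthy blood 2 stood out, at 2.09 CPM (exact Poisson 95% interval 1.45 to 2.92, counting error only), and the other healthy libraries held 1 count in all. That library also had the high B cell markers given above, and 46 counts of Timd4, a receptor of resident macrophages, which was at 0 in the other healthy libraries. Its neutrophil marker sum was the highest of the healthy libraries as well (901.5 CPM, against 715.7 and 673.5 CPM). The part of these cells in the Marco counts was not tested. Without the filter Marco was tested and not called in any comparison (adjusted p 0.276, 0.606 and 0.382 by edgeR for LLC blood against healthy blood, LLC tumor against LLC blood and LLC tumor against healthy blood). Cxcl17 (chr7:25400053-25412886) had no count in any of the 9 libraries, for which the exact Poisson 95% upper limits lay between 0.178 and 0.353 CPM.

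The class B receptors changed in opposite directions at each step. Cd36 (ENSMUSG00000002944, chr5:17781690-17888959) was at 38.4, 40.9 and 48.7 CPM in healthy blood, at 9.28, 6.36 and 7.003 CPM in LLC blood and at 49.3, 45.5 and 26.7 CPM in LLC tumor. LLC blood lay below every other library, and the tumor libraries overlapped those of healthy blood, with LLC tumor 3 the lowest of them. The fall of Cd36 from healthy to LLC blood was 5.81-fold (log2 fold change -2.54 ± 0.28 SE, 95% interval -3.17 to -1.91, adjusted p 0.000413 by edgeR), the 164th largest fall of the 12337 genes. It was 6.32-fold higher in tumor than in LLC blood (2.66 ± 0.28 SE, adjusted p 3.63e-05). Between tumor and healthy blood the log2 difference was 0.12 ± 0.25 SE with an interval from -0.45 to 0.69 (adjusted p 0.694), and it was -0.20 without LLC tumor 1. The sign also turned with library totals as the only scaling, to -0.076.

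Platelets carry much Cd36, and the sums of the 10 platelet markers were 43.3 to 46.9 CPM (healthy), 19.6 to 22.8 CPM (LLC blood) and 146.2 to 227.3 CPM (tumor), also lowest in LLC blood. In blood that sum was mainly Itgb3, an integrin chain not restricted to platelets, at 24.6 to 34.6 CPM in healthy and 13.1 to 17.7 CPM in LLC blood, and Gp9 was at 0.36 to 1.35 and 0.07 to 0.29 CPM. Of the 6 platelet markers tested 2, Itgb3 and Pf4, were called lower in LLC blood (9.61% of all genes). In tumor the sum was mainly Pf4 (110.7, 119.1 and 70.5 CPM) and Ppbp (110.4, 91.8 and 66.0 CPM). Among the others there, Itga2b was at 0.72 to 1.77 CPM, Treml1 at 0.36 to 0.98 CPM, and Gp9 and Gp6 at most at 0.26 CPM. Of the 8 dendritic cell markers 5 of 6 tested were called lower in LLC blood (9.61% of all genes), where they summed to 24.7 to 39.5 CPM against 81.5 to 86.3 CPM in the healthy libraries, and the sum was 6.32 to 9.93 CPM in tumor. The part of these cells in the Cd36 level was not tested.

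Scarb1 (ENSMUSG00000037936, chr5:125277087-125341094) was at 353.5, 305.0 and 315.9 CPM in healthy blood, at 408.7, 429.7 and 430.0 CPM in LLC blood and at 81.4, 112.6 and 122.3 CPM in LLC tumor. The 3 groups did not overlap: LLC blood was highest and tumor lowest. It was 3.53-fold lower in tumor than in LLC blood (log2 fold change -1.82 ± 0.10 SE, adjusted p 7.07e-07 by edgeR) and 2.76-fold lower than in healthy blood (-1.46 ± 0.10 SE, adjusted p 1.91e-06). The rise in LLC blood was 1.28-fold (0.35 ± 0.10 SE, 95% interval 0.14 to 0.57, adjusted p 0.0268). It did not hold in 8 of 21 alternatives, which included upper-quartile factors, library totals and the fits leaving out healthy blood 2, healthy blood 3, LLC blood 2 or LLC blood 3 in turn (0.25 to 0.42 over all alternatives). The 8 also include an adjusted p under 0.01 and at least 2-fold on the main fit, which this rise fails by construction.

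**Figure D2:**
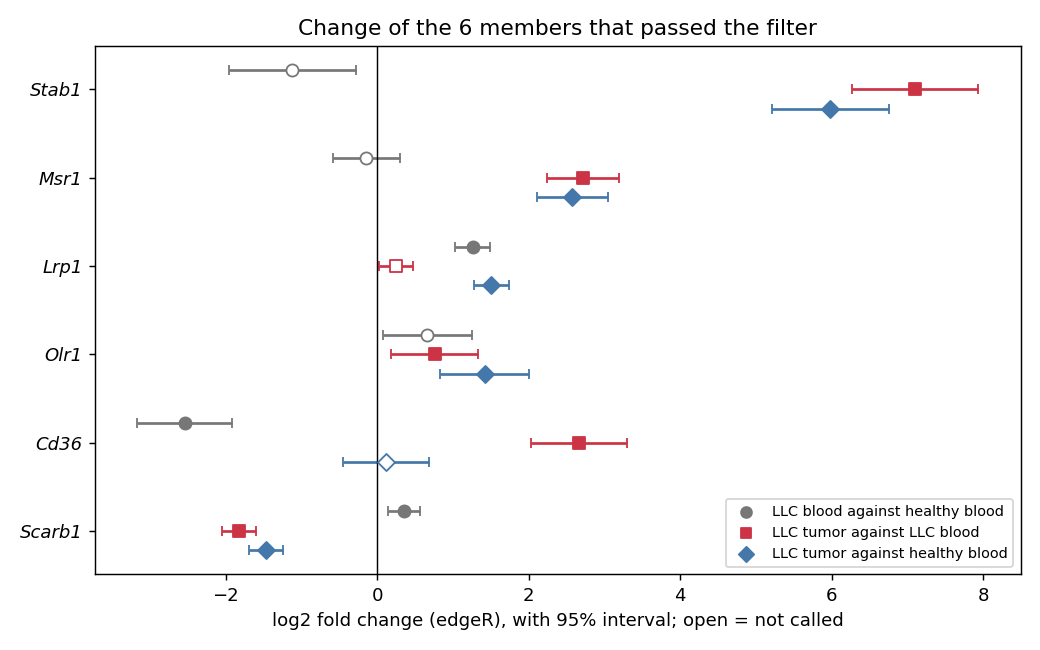
Log2 fold change of the 6 tested genes in the 3 comparisons (horizontal axis, with 95% intervals; circles LLC blood against healthy blood, squares LLC tumor against LLC blood, diamonds LLC tumor against healthy blood; filled symbols were called, open ones were not). Stab1 reaches 7.11 in tumor against LLC blood, Cd36 falls by 2.54 in blood and is 2.66 higher in tumor than in LLC blood, and the Scarb1 intervals in tumor lie below 0.

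Counts of a pair of genes within a library need no scaling between libraries, so ratios were taken, although their absolute size depends on transcript length. There were 9.20, 7.47 and 6.49 Scarb1 counts per Cd36 count in the healthy libraries, 44.1, 67.5 and 61.4 in those of LLC blood and 1.65, 2.48 and 4.58 in those of tumor. The balance of the class B genes therefore separated all 3 groups without overlap, with LLC blood at one end and tumor at the other. For Msr1 per Lrp1 count the ratio was 0.128, 0.148 and 0.177 (healthy), 0.0596, 0.0513 and 0.0602 (LLC blood) and 0.446, 0.246 and 0.259 (tumor). This ratio was lowest in LLC blood and highest in tumor. Stab1 counts per Lrp1 count were 0.00898, 0.00375 and 0.00424 (healthy), 0.00129, 0.00128 and 0.000787 (LLC blood) and 0.135, 0.129 and 0.115 (tumor), in the same order of groups. Olr1 per Lrp1 count did not separate them: it was 0.00573, 0.00562 and 0.00499 (healthy), 0.00347, 0.00352 and 0.00384 (LLC blood) and 0.00761, 0.00453 and 0.00341 (tumor), with LLC tumor 3 below every LLC blood library. With 3 libraries against 3, an exact permutation test of such a ratio cannot go below 0.10 on both sides, and none was made.

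**Figure D3:**
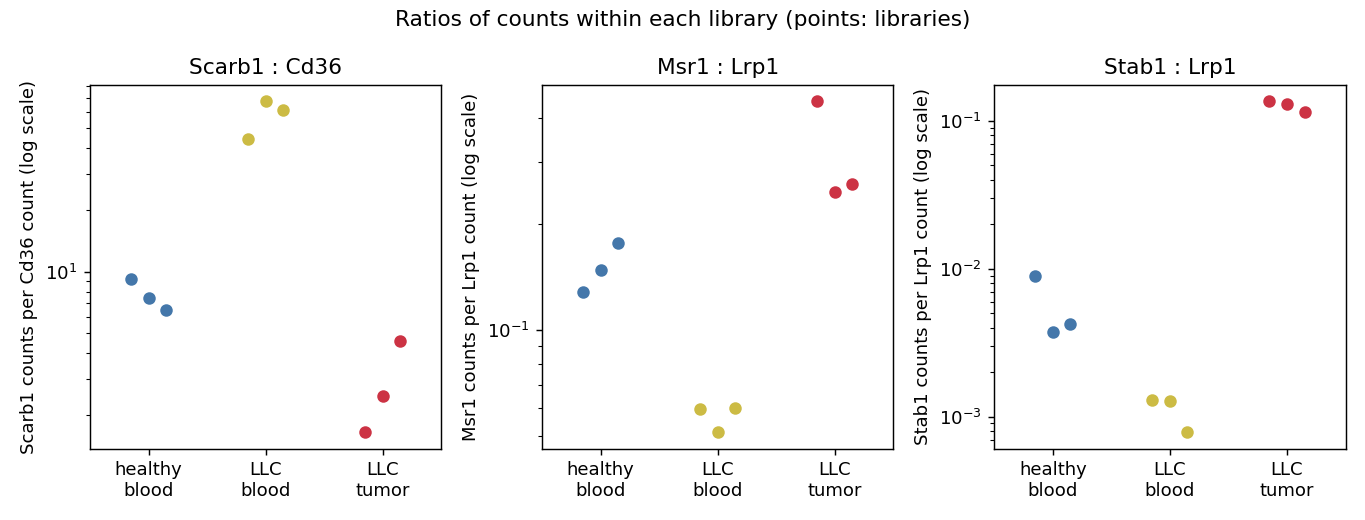
Ratio of counts within each library (vertical axes, log scale) for Scarb1 to Cd36, Msr1 to Lrp1 and Stab1 to Lrp1; points are the 3 libraries of each group. The Scarb1 to Cd36 ratio is highest in LLC blood (44.1 to 67.5) and lowest in tumor (1.65 to 4.58), while the ratios of Msr1 and Stab1 to Lrp1 are lowest in LLC blood and highest in tumor.

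Lrp1 was called higher than in healthy blood in both LLC blood and LLC tumor, and had the largest rise of the tested members in the blood comparison. Lrp1 (ENSMUSG00000040249, chr10:127538157-127621148) was at 1298, 1246 and 1142 CPM in healthy blood, at 2897, 3146 and 2946 CPM in LLC blood and at 2634, 3523 and 3190 CPM in LLC tumor. All libraries of tumor-bearing mice lay above all healthy ones. The LLC blood and tumor libraries overlapped in CPM, which leaves out the TMM factors. With the factors, which the fold changes use, every tumor library lay above every LLC blood library. The rise of Lrp1 from healthy to LLC blood was 2.39-fold (log2 fold change 1.26 ± 0.10 SE, 95% interval 1.03 to 1.49, adjusted p 0.000100 by edgeR), and that from healthy blood to tumor was 2.84-fold (1.51 ± 0.10 SE, adjusted p 2.23e-06). Between tumor and LLC blood the log2 difference was 0.25 ± 0.10 SE with an interval from 0.02 to 0.48 (adjusted p 0.0591). Over the alternatives it was 0.057 to 0.31, it was called in 5 of 21, and without LLC tumor 1 it passed at 0.29. Fibroblasts also express Lrp1, and their markers were high in LLC blood 1 and in tumor. Lrp1 was lowest in LLC blood 1 among the LLC blood libraries, and leaving that library out gave 1.29 in place of 1.26 for the blood comparison. In tumor, LLC tumor 1 had both the lowest fibroblast marker sum (966.7 CPM, against 3555 and 4039 CPM) and the lowest Lrp1 in CPM. The Lrp1 order is one of CPM only. Scaling by the TMM factors, 0.798 in LLC tumor 1 and 0.968 in LLC tumor 3, removes the gap between these libraries. The part of fibroblasts in the Lrp1 level was not tested.

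Olr1, the lectin-like receptor for oxidised lipoprotein, was called higher in tumor than in either blood group, by small folds. Olr1 (ENSMUSG00000030162, chr6:129479150-129507350) was at 7.43, 7.0 and 5.70 CPM in healthy blood, at 10.0, 11.1 and 11.3 CPM in LLC blood and at 20.04, 16.0 and 10.9 CPM in LLC tumor. The healthy libraries were the lowest. In CPM, which leaves out the TMM factors, LLC tumor 3 lay within the range of LLC blood. With the factors it lay just above that range. From healthy blood to tumor it rose 2.68-fold (log2 fold change 1.42 ± 0.26 SE, adjusted p 0.00102 by edgeR). Each step alone was less firm. The blood difference of 0.66 ± 0.26 SE was not called (adjusted p 0.0962 by edgeR); it was called in 4 of 21 alternatives, among them the fits without LLC tumor 1 and without LLC tumor 3 (0.61 and 0.66). The tumor difference of 0.76 ± 0.26 SE passed (adjusted p 0.0271), but 8 of 21 alternatives did not keep it, among them the fits without any one of the LLC blood libraries or without LLC tumor 1, where it was 0.43. The 8 also include an adjusted p under 0.01 and at least 2-fold on the main fit, which this difference fails by construction. It was 0.53 with library totals as the only scaling and 0.27 with limma-voom quality weights.

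In the reference annotation the spans of Msr1, Marco and Cd36 overlap no other gene. Those of Olr1, Scarb1, Lrp1 and Cxcl17 hold or overlap long noncoding RNA genes, and that of Stab1 overlaps a long noncoding RNA gene and Nt5dc2. The labels do not state that the libraries keep strand. The deposited counts of the 8 genes were whole in every library to within 0.001 of a count.

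Genes of the same systems were counted from lists, chosen with earlier results of these data known and tested in the same fit. Their levels are given as the mean ± SD of 3 libraries a group, and their changes as log2 fold changes ± SE with edgeR's adjusted p. Of 17 other scavenger receptors 14 were tested. In LLC blood against healthy blood 0 were called higher (a background of 14%) and 2 lower (9.61%): Mrc1, the macrophage mannose receptor, fell from 21.9 ± 4.90 to 6.95 ± 1.27 CPM (-1.70, adjusted p 0.00230 by edgeR), and Scarf1 from 21.2 ± 1.43 to 13.3 ± 1.07 CPM (-0.70, adjusted p 0.0330, not kept in 8 of 21 alternatives). Tumor against LLC blood gave 9 called higher (29.6% of all genes) and 3 lower (31.7%), with a median log2 fold change of 1.64 against -0.03 over all genes. Mrc1 reached 391.3 ± 107.2 CPM in tumor (log2 fold change 6.04 ± 0.29 SE, adjusted p 3.68e-07). Cxcl16, the membrane-bound scavenger of oxidised lipoprotein, rose from 3.38 ± 0.916 to 84.4 ± 36.5 CPM (4.90 ± 0.41 SE, adjusted p 8.84e-06). Its counts were split in all 9 libraries and its span overlaps Zmynd15, so its level is uncertain. Cd44, the hyaluronan receptor, rose from 966.8 ± 42.0 to 1573 ± 274.3 CPM (0.93 ± 0.18 SE, adjusted p 0.00176). Cd68 and Colec12 were also among the 9, as were Scara3, Scara5, Scarf2 and Ssc5d, named after their values were seen: each was below 1 CPM on average in both blood groups and at 30.9 ± 19.4, 3.07 ± 1.96, 23.3 ± 15.5 and 4.95 ± 2.81 CPM in tumor, where the fibroblast markers were high. The part of fibroblasts in them was not tested. Cd163, the haemoglobin scavenger, was at 4.59 ± 0.969, 5.45 ± 0.720 and 6.19 ± 2.70 CPM and was not called in any comparison. In LLC tumor against healthy blood 9 were called higher (33.5%) and 2 lower (33%).

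Of 16 ligands and partners of Lrp1 14 were tested, and in LLC blood against healthy blood 0 were higher and 2 lower (14% and 9.61% of all genes). Apoe, a lipoprotein ligand, fell from 1026 ± 96.1 to 330.1 ± 28.3 CPM (-1.66 ± 0.26 SE, adjusted p 0.00229 by edgeR), and Lpl, lipoprotein lipase, from 189.2 ± 48.5 to 19.4 ± 2.78 CPM (-3.32 ± 0.32 SE, adjusted p 0.000219). Tumor against LLC blood gave 10 higher and 0 lower (29.6% and 31.7% of all genes), with a median of 2.20; 61.3% of all genes were called in either direction. Thbs1, thrombospondin-1, which binds both LRP1 and CD36, rose from 158.1 ± 51.8 to 24423 ± 676.2 CPM (7.48 ± 0.36 SE, adjusted p 4.17e-07). Dab2, an endocytic adaptor, rose from 2.74 ± 1.55 to 695.6 ± 68.4 CPM (8.31 ± 0.50 SE, adjusted p 1.19e-06). Mmp9, a matrix metalloproteinase cleared by LRP1, rose from 1.72 ± 1.47 to 56.1 ± 28.6 CPM (5.23 ± 1.01 SE, adjusted p 0.00154). Against healthy blood 10 were higher and 1 lower in tumor (33.5% and 33% of all genes), and among those higher Plau, the urokinase protease, rose from 14.5 ± 2.33 to 164.8 ± 9.84 CPM (3.69 ± 0.21 SE, adjusted p 7.56e-07).

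**Figure D4:**
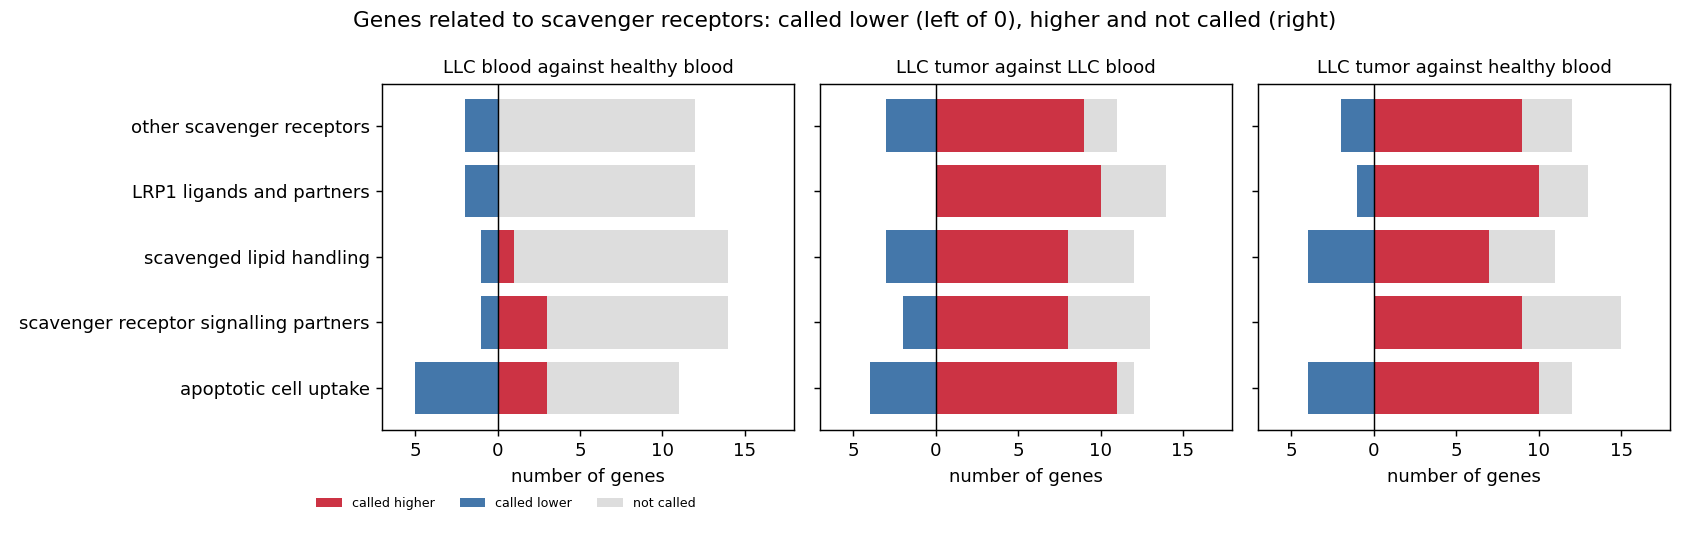
Number of tested genes called higher (red, right of 0), called lower (blue, left of 0) and not called (grey, stacked to the right of red) in 5 lists of related genes, for each comparison. In tumor against LLC blood 9 of 14 other scavenger receptors and 10 of 14 LRP1 ligands and partners are called higher (29.6% of all genes), and 0 of each in the blood comparison (14% of all genes).

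Genes that handle scavenged lipid were mixed. Of 16 listed 15 were tested. In blood 1 was higher and 1 lower (14% and 9.61% of all genes). Against LLC blood 8 were higher and 3 lower in tumor (median 0.58; 29.6% and 31.7% of all genes), and against healthy blood 7 were higher and 4 lower (median 0.41; 33.5% and 33%). The number called in either direction was near the background of 61.3% and 66.5%. Abca1, the cholesterol exporter, rose from 8.83 ± 1.20 CPM in LLC blood to 465.1 ± 52.6 CPM in tumor (5.94 ± 0.22 SE, adjusted p 1.60e-07 by edgeR). Fabp5, a fatty acid carrier, rose from 47.3 ± 4.86 to 258.4 ± 50.8 CPM (2.67 ± 0.21 SE, adjusted p 5.12e-06), and Plin2, a lipid droplet coat protein, from 281.5 ± 33.5 to 587.1 ± 108.0 CPM (1.29 ± 0.20 SE, adjusted p 0.000439).

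All 15 listed signalling partners were tested, and 3 were higher and 1 lower in the blood comparison (14% and 9.61% of all genes). Tlr4, the endotoxin receptor, which pairs with Tlr6 downstream of CD36, rose from 28.8 ± 4.2 to 53.9 ± 6.73 CPM (0.88 ± 0.13 SE, adjusted p 0.00208 by edgeR), and Tlr6 from 31.8 ± 1.79 to 45.6 ± 4.21 CPM (0.50 ± 0.15 SE, adjusted p 0.0394, not kept in 8 of 21 alternatives, with counts split in all 9 libraries). Between tumor and LLC blood 8 were higher and 2 lower (29.6% and 31.7% of all genes), near the background of 61.3% for either direction. The tetraspanin Cd9, a membrane partner of CD36, rose from 11.6 ± 2.59 to 440.2 ± 64.8 CPM (5.45 ± 0.28 SE, adjusted p 5.63e-07), and Cd81, another tetraspanin, from 4.87 ± 0.676 to 59.7 ± 20.99 CPM (3.80 ± 0.32 SE, adjusted p 9.68e-06). Against healthy blood 9 were higher and 0 lower in tumor (33.5% and 33% of all genes).

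Of 18 genes for the uptake of dying cells 16 were tested. In blood 3 were higher and 5 lower (14% and 9.61% of all genes). Axl, a phosphatidylserine-sensing receptor kinase, fell from 128.6 ± 8.01 to 47.3 ± 7.63 CPM (-1.47 ± 0.13 SE, adjusted p 0.000143 by edgeR), and was at 154.6 ± 12.1 CPM in tumor (0.44 ± 0.13 SE against healthy blood, adjusted p 0.0116), so that it too was lowest in LLC blood. In LLC tumor against LLC blood 11 were higher and 4 lower (median 1.26; 29.6% and 31.7% of all genes). C1qa, a chain of complement C1q, rose from 1.76 ± 0.331 to 191.2 ± 54.3 CPM (6.96 ± 0.46 SE, adjusted p 2.06e-06) and Tgm2, a transglutaminase, from 33.7 ± 4.55 to 1752 ± 429.6 CPM (5.93 ± 0.30 SE, adjusted p 4.88e-07). C1qa, C1qb and C1qc are also on the list of mature macrophage markers. Against healthy blood 10 were higher and 4 lower in tumor (33.5% and 33% of all genes).

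**Figure D5:**
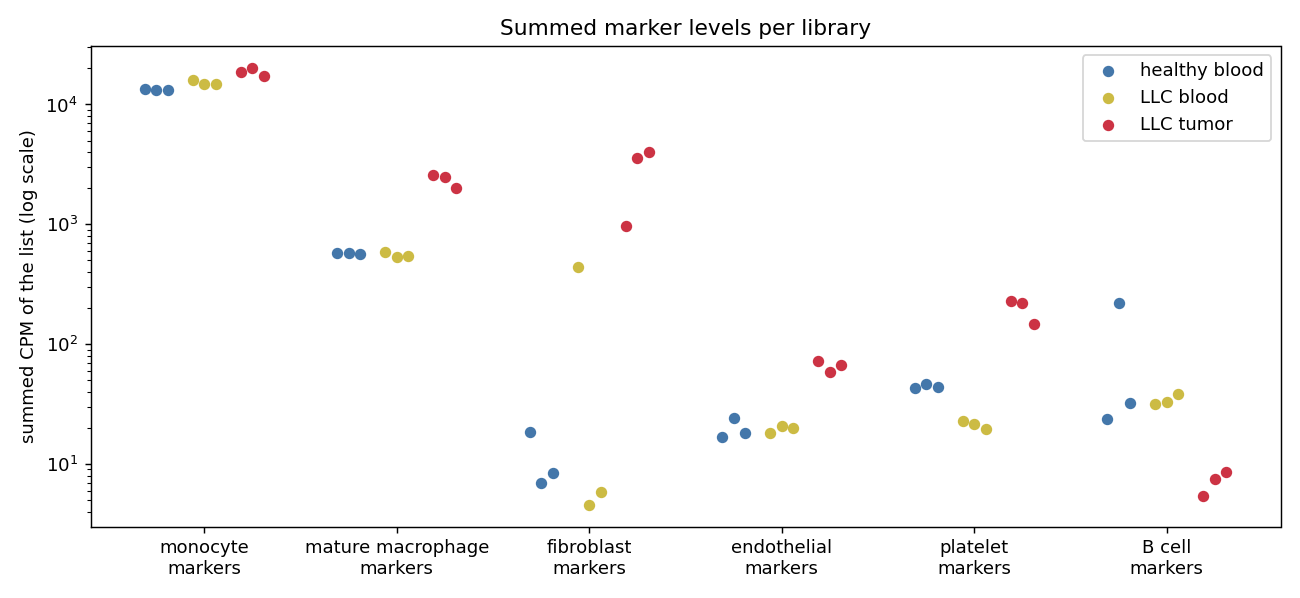
Summed CPM of 6 marker lists (vertical axis, log scale) in each library of healthy blood, LLC blood and LLC tumor; points are libraries. The monocyte marker sum lies between 13215 and 20233 CPM, with members that go both ways, fibroblast markers are high in the tumor libraries and in LLC blood 1, and B cell markers are high in healthy blood 2.

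The genes most like each member were taken by the Pearson correlation of log2(CPM + 1) over the 9 libraries, among the other genes averaging 20 CPM or more, 6902 for each member and 6903 for Olr1. These values describe 9 libraries in 3 groups, share library and depth, and carry no test. Stab1 was closest to Dab2 (r 0.998), Zfp703 (0.998) and the macrophage elastase Mmp12 (0.997), and Mmp12 was at 4.07 ± 3.30, 1.498 ± 0.548 and 533.4 ± 66.2 CPM in the 3 groups, in the order healthy blood, LLC blood, tumor. Msr1 was closest to Csrnp1 (0.998), Ell2 (0.997) and the ectonucleotidase Entpd1 (0.997). Lrp1 was closest to Ubr4 (0.995), Btbd7 (0.994) and Zbed6 (0.994), and Ubr4 was at 145.5 ± 9.14, 307.5 ± 11.7 and 320.2 ± 52.2 CPM. Scarb1 was closest to Ikbkb (1.000), Sort1 (0.999) and Mcmbp (0.997), and Sort1, the sorting receptor sortilin, was at 237.5 ± 20.3, 351.8 ± 28.3 and 49.8 ± 13.3 CPM. Cd36 was closest to Ptp4a1 (0.976), Chic2 (0.973) and Rpl22l1 (0.966), and Olr1 to Cpeb4 (0.946), Cyfip1 (0.945) and Trem2 (0.943), a lipid receptor of macrophages.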

How the data were processed

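Gene expression by RNA-seq was analysed in 9 of the 31 samples; the other 22, which hold chromatin assays, were left out. The authors deposited estimated counts per gene, not normalized, of which 8.56% to 9.73% per library were not whole. They also deposited a CPM table of 10693 genes, scaled to each column's total, which supplied the Ensembl identifiers. Whole reads were recovered from these CPM values for 100% of the values in every library (tolerance 0.001 of the value), all equal to the rounded counts, and were tested as an alternative chosen after seeing the data. The submitters' processing notes name Trim Galore, cutadapt, STAR, Salmon, edgeR and the build mm10, with no role given; the annotation is not given in the sources used here. Column heads with the letters BM were read as blood monocyte, because the titles, descriptions and source names of these samples all say blood; the letters alone could also stand for bone marrow, and the files do not settle it.

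Counts were rounded and fitted with edgeR 4.0.16 (R 4.3.3): all 9 libraries, group as the only term, TMM, the filterByExpr filter (12337 of 18544 genes with a count kept), the quasi-likelihood test and Benjamini-Hochberg adjustment over all genes. Intervals are 95%; those on single counts and the floor of 3 counts cover counting error only. On simulated data for LLC blood against healthy blood with 12337 genes, 55% of 100 genes changed 2-fold and 85% of 100 changed 4-fold were called, with 7 false calls of 147. DESeq2 1.42.0 and limma 3.58.1 served as alternatives. The members and the gene and marker lists were chosen with earlier results of these data known. Named were every member, up to 3 called genes of a list with the largest change averaging 20 CPM or more in the groups compared (Mrc1, Scarf1, Scara3, Scara5, Scarf2, Ssc5d, Cd163, Cd68 and Colec12 were named outside this rule, after their values were seen), and the 3 genes most like each member. Ly6g and Ahsp are not used here. Coordinates and promoters are those of RefSeq GRCm38.p6, used for names, spans and windows.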

Additional observations from a re-analysis of the deposited data

How the results depend on the processing

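Of 18 log2 fold changes (6 genes in 3 comparisons), 12 kept their direction and their side of the threshold in all 21 alternatives, and 6 did not: those of Olr1, Scarb1 and Stab1 in blood, of Olr1 and Lrp1 in LLC tumor against LLC blood, and of Cd36 in LLC tumor against healthy blood. Among the 21, an adjusted p under 0.01 and a change of at least 2-fold reuse the main fit. A call short of them fails by construction, and a gene not called cannot pass them. The Cd36 difference, not called, turned sign with library totals only (-0.076), limma-voom with quality weights (-0.34) and without LLC tumor replicate 1 (-0.20), and ran from -0.20 to 0.38 with one library left out. In LLC blood against healthy blood 3 members were called, and 5 with limma-voom with quality weights and with only the 6 libraries compared; with one library left out the number was 2 to 5, with 5 only without LLC tumor 1. It was 4 to 5 in LLC tumor against LLC blood and 5 in every such fit against healthy blood. Over all genes, 2917 were called in blood, 5884 with limma-voom with quality weights, 4889 with only the 6 libraries compared, 1386 at an adjusted p under 0.01, 769 at least 2-fold, and 1494 to 5064 with one library left out: 5064 without LLC tumor 1, 1873 and 1697 without healthy blood 2 and 3, and 1494 and 1577 without LLC blood 2 and 3. At least 2-fold changes numbered 3538 of 7566 in LLC tumor against LLC blood and 3989 of 8208 against healthy blood. The stricter thresholds call fewer genes by construction, and otherwise the cause was not tested. Same-numbered libraries of the blood groups correlated at 0.30, 0.18 and 0.07 in their deviations from the group means, and LLC blood 3 correlated best with healthy blood 2. Those of LLC tumor and LLC blood, which could share mice, correlated at -0.078, 0.12 and -0.14. The numbers were therefore not taken as pairs. With the replicate block 4, 5 and 5 members were called (Stab1 was added in blood), of 2788, 7455 and 8092 genes. By Spearman correlation 1 of the 3 genes most like Olr1 and 1 of those most like Stab1 remained among the first 3, and 0 of those of the other members. Marco, with at most 4 counts in every library but healthy blood 2, was tested only without the filter and with the recovered reads, and Cxcl17, with no count, was not tested.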

Other observations

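Healthy blood 2 was the library with Marco and Timd4 counts (34 and 46), and it also had the highest sums of the B cell markers (220.1 CPM). Among the healthy libraries it had the highest neutrophil marker sum too (901.5 CPM, against 715.7 and 673.5 CPM). Msr1, Cd36 and Lrp1 in that library (184.7, 40.9 and 1246 CPM) lay between the other healthy libraries, Scarb1 (305.0 CPM) lay below them, and the Cd36 and Lrp1 changes in blood were called in all 9 fits that left out one library.

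Within the LLC tumor libraries the fibroblast markers summed to 966.7, 3555 and 4039 CPM in LLC tumor 1 to 3. LLC tumor 1, the lowest, had the highest Msr1 (1174 CPM), Olr1 (20.04 CPM) and Cd36 (49.3 CPM) and the lowest Lrp1 (2634 CPM) and Scarb1 (81.4 CPM) of the 3. In CPM, Stab1 was also lowest in LLC tumor 1 (356.7 CPM, against 455.4 and 365.2 CPM). CPM leaves out the TMM factors, which were 0.798, 0.9996 and 0.968 in LLC tumor 1 to 3. The orders given here are therefore those of CPM. With the factors, LLC tumor 1 was still highest for Msr1, Olr1 and Cd36 and lowest for Scarb1. It was then level with LLC tumor 3 for Lrp1, and LLC tumor 3 was lowest for Stab1. With 3 libraries these orders are a description and were not tested.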
